A study of Mus musculus with 10 samples.

Results

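The 10 genes described here hold epithelial cells together or set their identity. They are Epcam (ENSMUSG00000045394), Cdh1 (ENSMUSG00000000303), Cdh3 (ENSMUSG00000061048), Perp (ENSMUSG00000019851), Sfn (ENSMUSG00000047281), Trp63 (ENSMUSG00000022510), Klf4 (ENSMUSG00000003032), Grhl1 (ENSMUSG00000020656), Grhl3 (ENSMUSG00000037188) and Ovol1 (ENSMUSG00000024922). They were chosen by name, as adhesion molecules and transcription factors of surface epithelium, out of 21729 genes of the deposited protein-coding table, and each matched 1 gene there. All 10 passed the filter on low counts, with between 1920 expected counts (Epcam) and 707400 (Perp) in a library.

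RNA had been sequenced from the blastemas of amputated mouse digit tips, the growth zones that form under the wound epidermis. In ΔLARM1/2 mutants LARM1 and LARM2, a pair of limb enhancers of the dorsal homeobox gene Lmx1b, are deleted, and the labels do not state the zygosity. The 4 groups were ΔLARM1/2 mutants at 14 days post amputation (dpa) with 3 libraries, wild type at 14 dpa with 2, ΔLARM1/2 mutants at 12 dpa with 3 and wild type at 12 dpa with 2. All animals were on a mixed CD1 C57Bl/6 background, and they were 35 days old at 14 dpa and 33 days old at 12 dpa. Each library pooled 6 central digits of the hindlimb, so that it averages over digits and over every cell type of the dissected tissue. Replicate 1 of the mutants at 14 dpa carries a wild type genotype tag against its title and description. It was treated as mutant, and placing it with wild type left 0 of the 10 genes and 0 of all tested genes past the threshold over both days, although 1 of the 10 and 5448 of all genes then had an unadjusted p under 0.05.

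Epithelial cells adhere through E-cadherin and P-cadherin at adherens junctions, through desmosomes, and through EpCAM, which also tunes tight junctions. In skin, the p53 relative p63 maintains the basal layer, and grainyhead-like, Klf and Ovol factors act as cells leave that layer and build the barrier. Cadherin genes and other epithelial genes are classical targets of repressors of the Snail and Zeb families, which bind the E-box CAGGTG.

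The promoters of Epcam, Sfn and Grhl3 are shown because they hold that E-box, while the windows of Klf4 and Grhl1 do not. The sequences are RefSeq's on build GRCm38.p6, from 250 bases before to 50 bases after the annotated start, and 5 of the 10 genes had an entry. Cdh1, Cdh3, Perp, Trp63 and Ovol1 had none. Both strands were searched. Capitals mark the E-box CAGGTG (read CACCTG on the other strand), the CACCC element bound by Klf factors (GGGTG on the other strand) and the grainyhead core AACNNGTT.
Epcam, chr17:87635729-87636028, plus strand: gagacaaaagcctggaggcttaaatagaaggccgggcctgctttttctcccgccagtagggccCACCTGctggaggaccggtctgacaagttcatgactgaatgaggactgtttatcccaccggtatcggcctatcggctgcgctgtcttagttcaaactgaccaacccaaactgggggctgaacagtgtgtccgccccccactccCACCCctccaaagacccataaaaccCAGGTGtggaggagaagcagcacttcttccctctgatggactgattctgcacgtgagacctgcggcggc
Sfn, chr4:133602119-133602418, minus strand: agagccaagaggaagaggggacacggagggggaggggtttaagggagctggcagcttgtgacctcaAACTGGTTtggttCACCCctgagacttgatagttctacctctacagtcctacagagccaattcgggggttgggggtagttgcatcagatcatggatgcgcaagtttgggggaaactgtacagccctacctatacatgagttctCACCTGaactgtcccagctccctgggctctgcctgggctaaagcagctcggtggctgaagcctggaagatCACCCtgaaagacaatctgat
Grhl3, chr4:135573583-135573882, minus strand: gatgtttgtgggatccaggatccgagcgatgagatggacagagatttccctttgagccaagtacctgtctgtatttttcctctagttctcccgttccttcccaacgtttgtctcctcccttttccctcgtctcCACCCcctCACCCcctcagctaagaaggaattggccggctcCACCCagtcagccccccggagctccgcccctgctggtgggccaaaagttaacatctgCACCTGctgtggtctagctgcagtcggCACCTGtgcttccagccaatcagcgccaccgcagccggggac

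The E-box of Epcam began 187 and 19 bases before the start site, that of Sfn 41 bases before it, and those of Grhl3 19 bases before and 9 bases after it. Of all 32851 promoter windows of this length, 20.2% held CAGGTG. Sfn was the one gene of the 5 with the grainyhead core, 184 bases before its start, and 4.20% of all windows held it. CACCC stood in the windows of Epcam, Sfn and Grhl3 and in the downstream one of the 2 windows of Grhl1, against 57.5% of all windows. The CCAAT box was in the windows of Sfn and Grhl3 and in the upstream one of Grhl1, against 37.4% of all windows. No match shown in capitals overlaps another. The longer grainyhead palindrome AACCGGTT, which contains the core and stood in 0.146% of all windows, the TATAAA box (13.6%) and a p53 family half-site (8.36%) were in none of the 6 windows. A match is a description of the letters, and binding was not measured.

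Each library held between 69998104 and 101632364 expected counts in all, and every group held 1 library read as female from its counts. Replicates differed far beyond counting noise. The share of counts on protein-coding genes was lowest, at 81.5%, in wild type 14 dpa replicate 1. Markers of nail and hair hard keratin cells, of which 7 of 8 had an identifier, were summed in TPM (a transcript's share of a library, corrected for length). At 14 dpa the sums were 21.4 to 32.3 TPM in mutants and 4450 to 5503 TPM in wild type. At 12 dpa they were 133 to 390 TPM in mutants and 8786 to 17630 TPM in wild type. Mutant 14 dpa replicate 1, which carries the wild type tag, is among these mutants, so its sum was at most 32.3 TPM. TPM share a fixed total in each library, so the genes described here are compared between libraries mainly in CPM (counts relative to the library size after TMM scaling). Marker sums, marker means and some single genes are given in TPM all the same. Differences of mutants over wild type ran higher in TPM. For Epcam at 14 dpa the log2 difference was 2.20 in TPM and 1.92 in edgeR's fit to counts. For each other gene described here it also lay higher in TPM, on both days. The part of the hard keratins in this was not tested. The labels call the replicates biological without saying whether they came from separate animals, and p-values measure the spread between these libraries.

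Over both days, 7 of the 10 genes rose in mutants (Epcam, Klf4, Cdh1, Cdh3, Trp63, Grhl1 and Perp), 0 fell, and Sfn, Grhl3 and Ovol1 did not pass edgeR's quasi-likelihood test at an adjusted p of 0.05. Among all 20216 tested genes 21.5% rose and 22.2% fell in this comparison, and the median log2 fold change was 0.02. At 14 dpa 4 of the 10 rose and 0 fell, against 16.1% and 17.2% of all genes. At 12 dpa 2 of the 10 rose and 1 fell, against 7.18% and 9.34%. Every mutant library lay above every wild type library of its day for 9 of the 10 genes at 14 dpa (30.8% of all genes, with 31.6% lower), for 6 at 12 dpa (25.7%) and for 6 on both days (18.0%). Ovol1 lay below in every mutant library at 12 dpa, as 26.0% of all genes did. In bulk tissue, more cells of a type and more RNA per cell cannot be told apart.

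**Figure D1:**
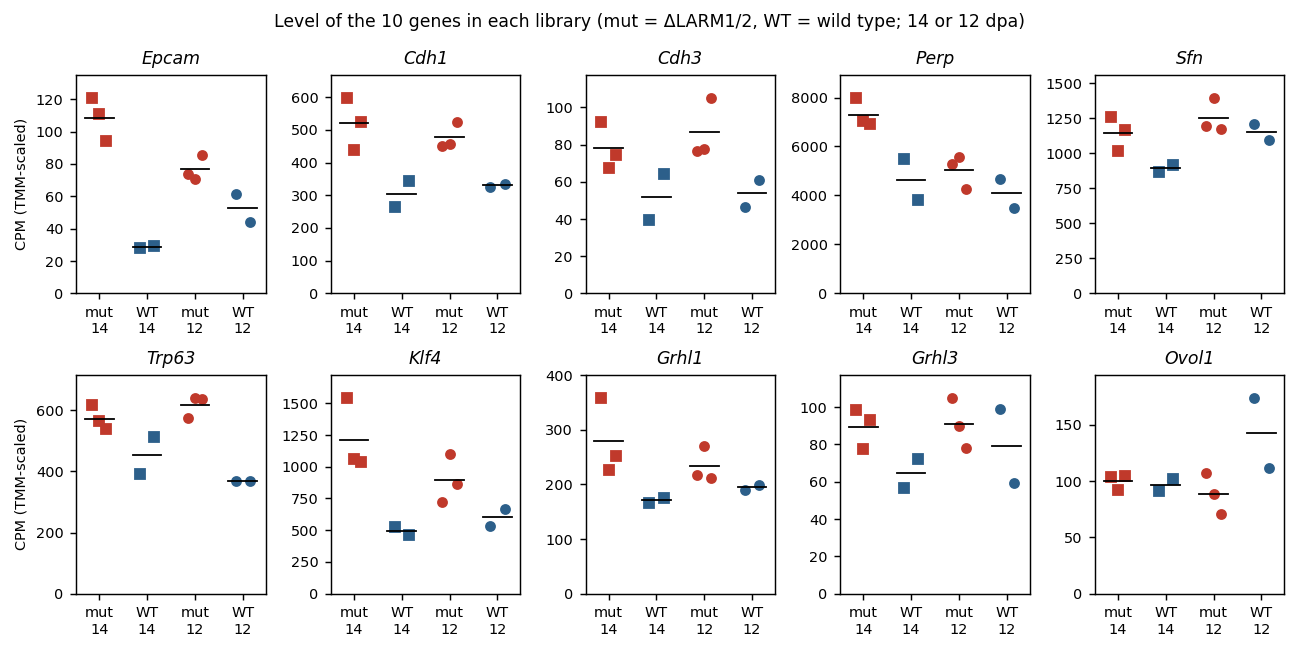
Each panel plots 1 gene, with CPM after TMM scaling on the y axis from 0, 1 point per library and a bar at the group mean. ΔLARM1/2 mutants (mut, red) stand left of wild type (WT, blue) within 14 dpa (squares) and 12 dpa (circles), and the Epcam mutants at 14 dpa sit at 94.0 to 121 CPM against 28.0 and 29.4 CPM in wild type.

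Epcam, a single-pass adhesion glycoprotein of epithelial cells that is also carried by Langerhans cells, showed the largest log2 fold change of the 10 at 14 dpa and over both days. The mutant libraries had 121, 111 and 94.0 CPM at 14 dpa, and those of wild type 28.0 and 29.4 CPM. The groups were far apart, and no library lay between them. Its log2 fold change of 1.92 (SE 0.17, adjusted p = 0.000442), a 3.78-fold difference, ranked 33 by p among 20216 genes. At 12 dpa the values were 74.0, 70.7 and 85.3 CPM in mutants and 61.2 and 44.3 CPM in wild type, again without overlap. The log2 fold change there, 0.54 (SE 0.16), just passed with an adjusted p of 0.0491. That call did not hold without wild type 12 dpa replicate 2 (0.33, adjusted p = 0.296), nor in 7 of the other 9 single omissions, where the adjusted p was 0.0535 to 0.110. Over both days Epcam averaged 92.6 ± 20.0 CPM in mutants (SD, n = 6) and 40.7 ± 15.5 CPM in wild type (SD, n = 4), with a log2 fold change of 1.23 (SE 0.12, adjusted p = 0.000127).

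The genotype difference of Epcam was larger at 14 than at 12 dpa by 1.38 on the log2 scale (SE 0.23), which ranked 4 by p of 20216 genes but had an adjusted p of 0.544 in edgeR. No tested gene passed for this difference between days in edgeR, while 1763 had an unadjusted p under 0.05, Epcam and Ovol1 among them. DESeq2's Wald test called Epcam, as the only one of the 10, with an adjusted p of 0.000454, and limma on log2 TPM called 0 of the 10. Epcam at 14 dpa was lower than at 12 dpa in wild type, with a log2 fold change of -0.88 (SE 0.18, edgeR adjusted p = 0.533, DESeq2 adjusted p = 0.0160), and higher in mutants, with 0.50 (SE 0.14, edgeR adjusted p = 0.133, DESeq2 adjusted p = 0.0291). In each genotype the CPM values of the days did not overlap. In TPM those of wild type did not overlap either, but those of mutants did. The mutants had 60.5, 53.3 and 43.7 TPM at 14 dpa and 43.1, 45.5 and 59.3 TPM at 12 dpa. Between the days 0 of the 10 genes passed in edgeR in wild type, where 0% of all genes did and 1654 had an unadjusted p under 0.05. In mutants 0 of the 10 passed as well, against 0.0346% of all genes (0.0148% higher and 0.0198% lower), with 3803 at an unadjusted p under 0.05.

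Genes listed as Langerhans cell markers (Cd207, Cd74 and H2-Aa) were also higher in mutants over both days. For 14 minus 12 dpa their median was -0.18, with 0 of the 3 past the threshold, and Epcam had 1.38 (adjusted p = 0.544). On each day alone only Cd74 passed. All 3 rose in mutants over both days, as 21.5% of all tested genes did. Their sum was 105 to 120 TPM in mutants and 28.9 to 48.8 TPM in wild type at 14 dpa. At 12 dpa it was 68.7 to 180 TPM in mutants and 34.3 to 36.1 TPM in wild type. At 14 dpa most of the sum was Cd74 and H2-Aa, not Cd207. Cd207, the langerin that defines these cells, had 1.89 to 3.45 TPM in mutants and 0.15 and 1.13 TPM in wild type at 14 dpa, when Epcam had 43.7 to 60.5 TPM in mutants and 9.57 and 13.5 TPM in wild type. The part of Langerhans cells in the Epcam result was not tested. Of 4 Merkel cell markers 3 rose, and their sums were at most 2.59 TPM in any library, with 1.13 to 2.59 TPM in mutants and 0.31 to 0.38 TPM in wild type at 12 dpa, and their part was not tested either.

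Cdh1, the E-cadherin of adherens junctions, had 597, 438 and 525 CPM in mutants and 264 and 343 CPM in wild type at 14 dpa. At 12 dpa it had 451, 456 and 524 CPM in mutants and 325 and 336 CPM in wild type. All mutant libraries lay above all wild type libraries on either day, and also across days. Cdh1 rose over both days with a log2 fold change of 0.65 (SE 0.12, adjusted p = 0.00256). It passed at 14 dpa with 0.78 (SE 0.17, adjusted p = 0.00994) but not at 12 dpa, where the value was 0.53 (SE 0.17, adjusted p = 0.0603). Without wild type 14 dpa replicate 1 the call at 14 dpa was lost (0.60, adjusted p = 0.0872), and without mutant 14 dpa replicate 1 Cdh1 passed at 12 dpa (adjusted p = 0.0430).

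Cdh3, the P-cadherin of basal keratinocytes and hair matrix, was the least abundant of the 10 per length. It stood at 92.4, 67.4 and 74.2 CPM in mutants and 39.2 and 64.2 CPM in wild type at 14 dpa, and at 76.7, 77.8 and 105 CPM in mutants and 46.5 and 61.2 CPM in wild type at 12 dpa. The lowest mutant library at 14 dpa was close to the higher wild type one. Cdh3 rose over both days with a log2 fold change of 0.64 (SE 0.17, adjusted p = 0.0149), and passed on neither day alone (0.59, adjusted p = 0.0861 at 14 dpa and 0.68, adjusted p = 0.0826 at 12 dpa). Without wild type 12 dpa replicate 1 the call over both days was lost (adjusted p = 0.0603), and the value at 14 dpa was 0.94 (adjusted p = 0.0471) without wild type 14 dpa replicate 2 and 0.28 (adjusted p = 0.461) without replicate 1.

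Perp, a tetraspan protein of desmosomes that p53 and p63 activate, was the most abundant of the 10. At 14 dpa it had 7982, 7034 and 6900 CPM in mutants and 5472 and 3802 CPM in wild type, without overlap. At 12 dpa it had 5289, 5562 and 4278 CPM in mutants and 4688 and 3478 CPM in wild type, and the groups overlapped. Perp rose over both days with a log2 fold change of 0.48 (SE 0.16, adjusted p = 0.0354). At 14 dpa alone it had 0.66 (SE 0.23, adjusted p = 0.0513), which DESeq2 put past the threshold (0.0118) and so did leaving out either wild type 12 dpa library (0.0481 and 0.0480). Without wild type 14 dpa replicate 2 the 14 dpa value was 0.36 (adjusted p = 0.380), and without replicate 1 it was 0.94 (adjusted p = 0.0579). Perp had at 12 dpa 0.30 (SE 0.23), with an adjusted p of 0.375. The call over both days was lost in 7 of 10 single omissions, with adjusted p up to 0.176 without wild type 14 dpa replicate 2, with upper quartile scaling (0.0700) and with sex as a term (0.0558).

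Sfn encodes 14-3-3 sigma, a p53 target that marks keratinocytes leaving the cell cycle. Its values were 1260, 1018 and 1162 CPM in mutants and 868 and 917 CPM in wild type at 14 dpa. At 12 dpa the groups overlapped, with 1191, 1394 and 1175 CPM in mutants and 1205 and 1094 CPM in wild type. Over both days its log2 fold change was 0.24 (SE 0.11, adjusted p = 0.0935), which DESeq2 put past the threshold (adjusted p = 0.0478).

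Trp63, the transcription factor that keeps stratified epithelium and its basal stem cells, passed at 12 dpa and not at 14 dpa. Mutants had 615, 564 and 537 CPM and wild type 393 and 512 CPM at 14 dpa, where the higher wild type library came close to the lowest mutant one. On day 12 the values were 573, 639 and 637 CPM in mutants and 367 and 368 CPM in wild type, far apart. The log2 fold change came to 0.34 at 14 dpa (SE 0.15) with an adjusted p of 0.0991, and to 0.75 at 12 dpa (SE 0.15) with an adjusted p of 0.0112. Over both days Trp63 rose by 0.54 (SE 0.10, adjusted p = 0.00304). The days did not differ past the threshold, with -0.41 for 14 minus 12 dpa (SE 0.21, adjusted p = 0.594). Leaving out wild type 12 dpa replicate 1 or replicate 2 ended the call at 12 dpa (adjusted p = 0.0598 and 0.0804), and without wild type 14 dpa replicate 1 the 14 dpa value was 0.16 (adjusted p = 0.535).

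Klf4, a zinc finger factor needed for the skin barrier, had the next largest log2 fold change after Epcam at 14 dpa and over both days. Mutants had 1539, 1060 and 1039 CPM and wild type 526 and 464 CPM at 14 dpa. The 12 dpa values were 720, 1103 and 867 CPM in mutants and 537 and 664 CPM in wild type. Neither day showed overlap, and mutant 14 dpa replicate 1 was the highest library. Klf4 rose at 14 dpa with a log2 fold change of 1.29 (SE 0.24, adjusted p = 0.00545) and over both days by 0.94 (SE 0.17, adjusted p = 0.00223). At 12 dpa alone its 0.58 (SE 0.24) had an adjusted p of 0.117. Without wild type 14 dpa replicate 2 the adjusted p at 14 dpa was 0.0517. The gap between the days, 0.71 (SE 0.33), had an adjusted p of 0.580.

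Grhl1, a grainyhead factor that activates desmosomal cadherin genes, had 358, 227 and 252 CPM in mutants and 167 and 175 CPM in wild type at 14 dpa. In the 12 dpa libraries it had 217, 270 and 212 CPM in mutants and 189 and 200 CPM in wild type. The groups did not overlap on either day, and mutant 14 dpa replicate 1 stood apart from the other two mutant libraries of its day. Grhl1 rose over both days with a log2 fold change of 0.48 (SE 0.14, adjusted p = 0.0184) and at 14 dpa by 0.71 (SE 0.20, adjusted p = 0.0236). At 12 dpa it had 0.26 (SE 0.19), with an adjusted p of 0.375. The call over both days was lost without wild type 12 dpa replicate 1 (adjusted p = 0.0571), wild type 14 dpa replicate 2 (0.0597) or wild type 14 dpa replicate 1 (0.0625). The call at 14 dpa was lost without either wild type 14 dpa library (adjusted p = 0.112 and 0.123).

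Grhl3, the grainyhead factor of barrier formation and wound closure, passed in no edgeR comparison. It had 98.2, 77.4 and 92.9 CPM in mutants and 56.8 and 72.4 CPM in wild type at 14 dpa, without overlap. The 12 dpa values were 105, 90.0 and 77.8 CPM in mutants and 99.0 and 59.5 CPM in wild type, and the groups overlapped. Over both days Grhl3 had a log2 fold change of 0.33 (SE 0.16, adjusted p = 0.112), which was 0.54 (adjusted p = 0.0177) without wild type 12 dpa replicate 1 and 0.18 (adjusted p = 0.353) without replicate 2.

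Ovol1, a zinc finger repressor that restrains proliferation of epidermal progenitors, fell at 12 dpa, as the only one of the 10 to fall in any of the 3 genotype comparisons. At 14 dpa its groups overlapped, at 104, 91.7 and 105 CPM in mutants and 91.6 and 102 CPM in wild type, with a log2 fold change of 0.05 (SE 0.21, adjusted p = 0.862) that turned to -0.05 with upper quartile scaling. The 12 dpa libraries had 107, 88.3 and 71.1 CPM in mutants and 174 and 112 CPM in wild type, and the lower wild type library was only slightly above the highest mutant one. There the log2 fold change was -0.68 (SE 0.20), with an adjusted p of 0.0469. Without wild type 12 dpa replicate 1 it was -0.33 (adjusted p = 0.346), and the call was lost in 8 of 10 single omissions, with adjusted p from 0.0519. Over both days Ovol1 had -0.32 (SE 0.14, adjusted p = 0.101), which passed without wild type 12 dpa replicate 2 (-0.46, adjusted p = 0.0296) or mutant 12 dpa replicate 1 (-0.40, adjusted p = 0.0493) and was -0.14 (adjusted p = 0.449) without wild type 12 dpa replicate 1. The difference between the days was 0.74 (SE 0.29, adjusted p = 0.550).

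**Figure D2:**
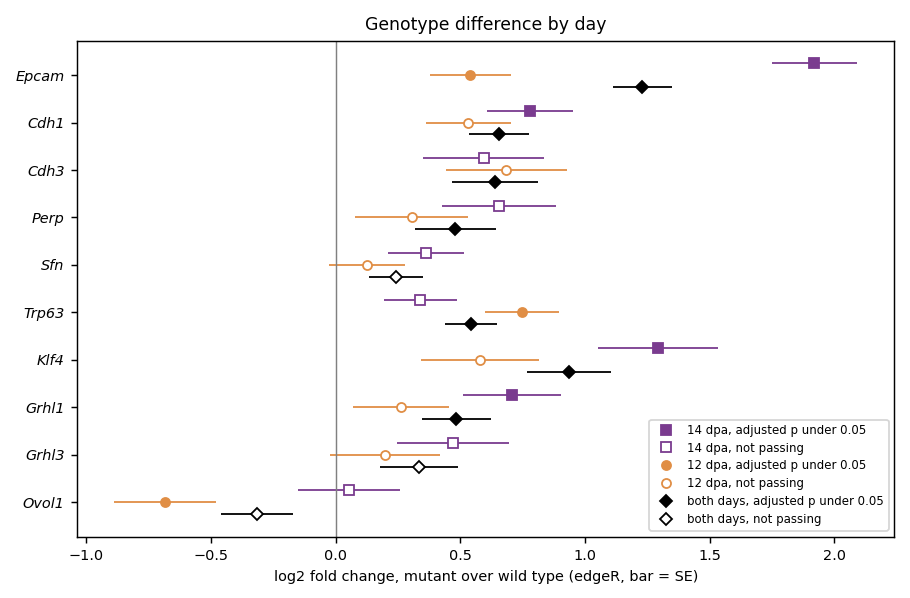
Points are edgeR log2 fold changes of mutant over wild type on the x axis for each of the 10 genes on the y axis, at 14 dpa (squares), at 12 dpa (circles) and over both days (diamonds), with bars of 1 SE and filled symbols where the adjusted p was under 0.05. Epcam at 14 dpa stands at 1.92, and Ovol1 at 12 dpa is the one filled symbol below 0, at -0.68.

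Levels of different genes were compared per length, in TPM. The order Perp, Sfn, Klf4 held in all 4 groups with no overlap between neighbours. Perp had 3039 ± 350 TPM (SD, n = 3) in mutants and 1576 ± 90.1 TPM (SD, n = 2) in wild type at 14 dpa. Trp63 and Cdh1 followed and overlapped each other in every group, with 94.3 ± 10.2 and 89.6 ± 16.2 TPM in mutants at 14 dpa, then Grhl1. Epcam changed its place: in mutants it was the seventh on both days, with 52.5 ± 8.45 TPM at 14 dpa and 49.3 ± 8.78 TPM at 12 dpa, overlapping Grhl1 above it. In wild type it stood below Ovol1 and, at 14 dpa, also below Grhl3, with 11.5 ± 2.74 TPM at 14 dpa and 26.5 ± 3.57 TPM at 12 dpa (SD, n = 2 each). In wild type at 14 dpa Epcam overlapped both Grhl3 above and Cdh3 below it. Cdh3 was the lowest in every group, with 13.4 ± 2.66 TPM in mutants and 7.71 ± 3.98 TPM in wild type at 14 dpa.

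The balance within 3 pairs of genes was compared by TPM ratio, with an exact permutation test, two-sided, that exchanged genotype labels within each day (100 arrangements, smallest possible p 0.01) and adjustment over the 3 ratios. The Klf4 to Ovol1 ratio at 14 dpa was 14.7, 11.5 and 10.1 in mutants, against 5.59 and 4.39 in wild type. At 12 dpa it was 6.70, 12.2 and 12.0 in mutants, against 3.10 and 5.80 in wild type. All 6 mutant libraries lay above all 4 wild type libraries, though mutant 12 dpa replicate 1 only by a little. The mean was 11.2 ± 2.67 in mutants (SD, n = 6) and 4.72 ± 1.25 in wild type (SD, n = 4), a log2 difference of 1.25 (exact p = 0.01, the smallest possible, adjusted p = 0.03). The pairs were chosen with earlier results of these data known. Over both days Klf4 had a log2 fold change of 0.94 and Ovol1 of -0.32, so this ratio restates those differences and is no separate evidence. The ratio of P-cadherin to E-cadherin, Cdh3 to Cdh1, was 0.165 ± 0.0206 in mutants (SD, n = 6) and 0.165 ± 0.0218 in wild type (SD, n = 4), with an exact p of 0.99. Grhl3 to Grhl1 was 0.454 ± 0.0861 in mutants and 0.491 ± 0.124 in wild type, with an exact p of 0.65 and an adjusted p of 0.975. With 1 library left out, 40 or 60 arrangements remain, too few for an adjusted p over 3 ratios to fall under 0.05, so these omissions do not test the call.

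**Figure D3:**
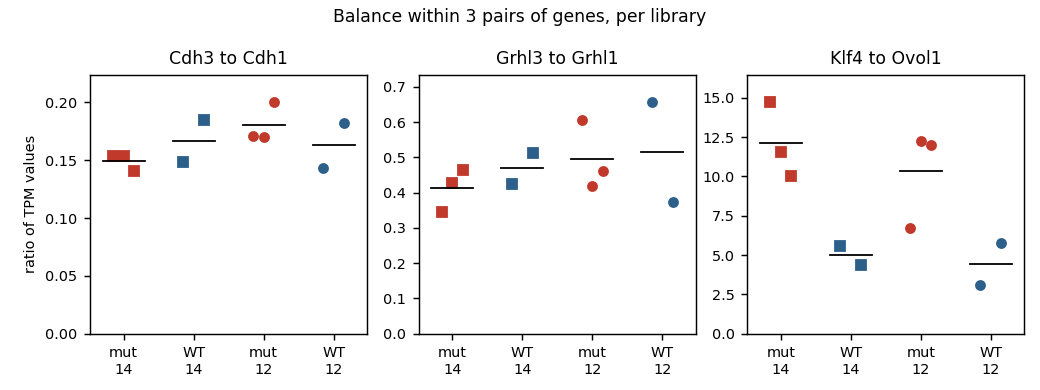
Each panel plots the ratio of the TPM values of 2 genes on the y axis from 0, 1 point per library, with a bar at the group mean, mutants (mut, red) left of wild type (WT, blue) within each day. The Klf4 to Ovol1 ratios of mutants lie between 6.70 and 14.7, above the wild type range of 3.10 to 5.80, and the other two ratios overlap.

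Some keratinocyte markers moved with these genes, while 21.5% of all tested genes rose over both days and 22.2% fell. Of 6 basal markers, 3 rose over both days (Krt5, Krt14 and Krt15), 1 fell (Itga6) and 2 did not pass. Their geometric mean was 346 to 379 TPM in mutants and 145 to 230 TPM in wild type at 14 dpa, and 364 to 622 TPM in mutants and 189 to 307 TPM in wild type at 12 dpa. Of 6 suprabasal markers, 2 rose (Krt10 and Dsg1a) and 4 did not pass, with a geometric mean of 708 to 1331 TPM in mutants and 383 and 390 TPM in wild type at 14 dpa, and 670 to 868 TPM in mutants and 439 and 585 TPM in wild type at 12 dpa. Of 7 fibroblast markers 6 fell and 0 rose, with sums of 428 to 1546 TPM in mutants and 2014 and 2302 TPM in wild type at 14 dpa, and 1090 to 1790 TPM in mutants and 2879 and 3602 TPM in wild type at 12 dpa. All 5 endothelial markers fell and all 5 melanocyte markers rose, with melanocyte sums of 8.97 to 19.0 TPM in mutants and 0.37 to 0.45 TPM in wild type at 14 dpa. The part of keratinocytes, fibroblasts, endothelium or melanocytes in the differences of the 10 genes was not tested.

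Set against the markers of the same library, the genes separated. Relative to the basal markers, Epcam at 14 dpa was still higher in every mutant library, by 1.20 on the log2 scale, and Klf4 by 0.53. At 12 dpa both overlapped (-0.16 for Epcam and -0.19 for Klf4). Cdh1 over basal markers differed by 0.03 at 14 dpa and -0.20 at 12 dpa and Cdh3 by -0.12 and -0.05, with overlap throughout. Ovol1 was lower relative to basal markers in every mutant library on either day, by -0.74 at 14 dpa and -1.42 at 12 dpa, and likewise relative to suprabasal markers, by -0.95 on each day. Sfn was also lower relative to basal markers in every mutant library, by -0.37 at 14 dpa and -0.61 at 12 dpa. Trp63 (-0.44) and Grhl3 (-0.26) were likewise lower over basal markers in every mutant library at 14 dpa, and Grhl1 (-0.48) at 12 dpa, while their values of the other day overlapped. Against suprabasal markers Epcam (0.98) and Klf4 (0.32) were higher in every mutant library at 14 dpa, and Sfn (-0.59) was lower. These are descriptions with no test, because the markers are themselves part of the genotype difference. The basal markers did not move alike. At 12 dpa Krt15 had the largest log2 fold change of them, 2.92 (SE 1.08, adjusted p = 0.104). Krt5 and Krt14 passed as higher there, while Itga6 (-0.65), Itgb4 (-0.31) and Col17a1 (-0.49) were negative. At 14 dpa Krt15 was again the largest, at 1.88 (SE 1.02, adjusted p = 0.189). How far the values over basal markers rest on Krt15 was not tested.

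**Figure D4:**
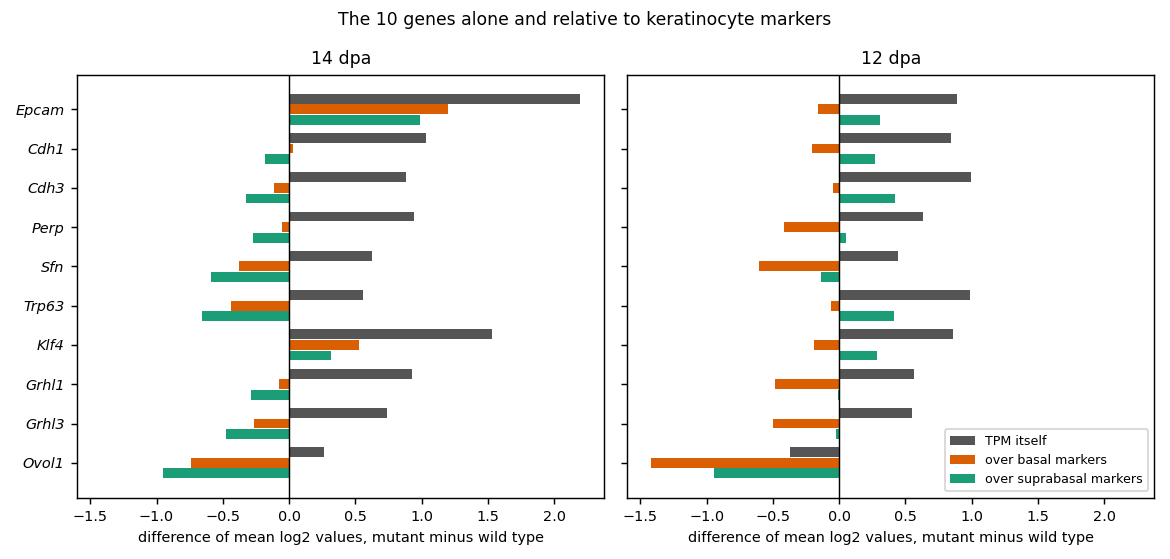
Bars show the difference of mean log2 values, mutant minus wild type, on the x axis for each of the 10 genes on the y axis, for TPM itself (grey) and for TPM over the geometric mean of basal (orange) or suprabasal (green) keratinocyte markers, at 14 dpa on the left and 12 dpa on the right. At 14 dpa Epcam keeps 1.20 over basal markers while Cdh1 is at 0.03 and Ovol1 at -0.74.

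Across the 10 libraries the 45 pairs among the genes had Pearson r of log2 CPM from -0.63 (Trp63 with Ovol1) to 0.94 (Grhl1 with Klf4). The cadherins Cdh1 and Cdh3 stood at 0.91 and Epcam with Cdh1 at 0.87. Ovol1 had a negative r with 7 of the other nine. Among all other tested protein-coding genes the most alike were Rnf166 for Epcam (0.98), Coa5 for Cdh1 (0.98), Prkar2a for Cdh3 (0.99), Dsg1a for Perp (0.98), Prickle3 for Sfn (0.97), Fig4 for Trp63 (0.98), Irf2bp2 for Klf4 (0.99), Mapk6 for Grhl1 (0.99), Gm5900 for Grhl3 (0.95) and A430033K04Rik for Ovol1 (0.93). Dsg1a, a desmosomal cadherin, is the one of these with a textbook place in the same junctions. The points share their genotype and day groups, so these values describe the 10 libraries only.

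Most listed genes of adherens junctions rose over both days, though at 12 dpa alone only 1 passed. Of 15 tested genes of adherens junctions, 9 rose over both days, 1 fell (Lima1) and 5 did not pass. Among all tested genes 21.5% rose and 22.2% fell. The median log2 fold change was 0.40 against 0.02 over all genes. The 4 largest were Nectin3 (0.71, SE 0.16, adjusted p = 0.00726), Jup, the plakoglobin shared with desmosomes (0.67, SE 0.14, adjusted p = 0.00446), Plekha7 (0.63, SE 0.13, adjusted p = 0.00375) and Nectin1 (0.60, SE 0.12, adjusted p = 0.00427). Jup had 1112 to 1489 TPM in mutants and 495 and 533 TPM in wild type at 14 dpa. The cadherin-bound catenins did not move alike: Ctnnd1, the p120 catenin, rose by 0.52 (SE 0.10, adjusted p = 0.00342), Ctnna1 had 0.26 (SE 0.10, adjusted p = 0.0527) and Ctnnb1, which also carries Wnt signals, -0.00 (SE 0.10, adjusted p = 0.998). At 14 dpa 10 of the 15 rose and 0 fell, against 16.1% and 17.2% of all genes. At 12 dpa 1 rose (Plekha7) and 0 fell, against 7.18% and 9.34%, with a median of 0.25. For the difference between days 0 of the 15 passed.

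Of 21 tested genes of tight junctions and apical polarity, 10 rose over both days, 5 fell and 6 did not pass, with a median of 0.22. Among all tested genes 21.5% rose and 22.2% fell. At 14 dpa 11 of the 21 rose and 5 fell, against 16.1% and 17.2% of all genes, with a median of 0.51. At 12 dpa 3 rose and 4 fell, against 7.18% and 9.34%, with a median of -0.13. Tjp3, a scaffold of tight junctions, rose (1.13, SE 0.13, adjusted p = 0.000330), with 11.6 ± 2.69 TPM in mutants and 4.24 ± 0.66 TPM in wild type at 14 dpa. Cldn7, a claudin that binds EpCAM, fell (-2.72, SE 0.39, adjusted p = 0.000807), but had at most 0.48 TPM in any library. Cgnl1 (-1.50, SE 0.24, adjusted p = 0.00155) and Marveld3 (-1.24, SE 0.15, adjusted p = 0.000401), both tight junction proteins, fell as well. Cldn1, a claudin needed for the skin barrier, had -0.05 (SE 0.09, adjusted p = 0.699). Ctnna1, Ctnnb1, Ctnnd1, Lima1 and Cldn1 were named after their values were seen.

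Of 8 tested EpCAM partners and surface proteases, 3 rose over both days and 0 fell, against 21.5% and 22.2% of all tested genes. They were Spint2 (0.42, SE 0.09, adjusted p = 0.00560) and Spint1 (0.41, SE 0.12, adjusted p = 0.0175), inhibitors of the matriptase that cleaves EpCAM, and the hyaluronan receptor Cd44 (0.40, SE 0.12, adjusted p = 0.0238). With upper quartile scaling or in DESeq2 1 of the 8 fell. In edgeR at 14 dpa 4 rose and 0 fell, with a median of 0.40, against 16.1% and 17.2% of all genes. At 12 dpa 0 of the 8 passed, with a median of -0.04.

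Of 20 other epithelial transcription and splicing factors, 12 rose over both days, 2 fell and 6 did not pass, with a median of 0.46. Among all tested genes 21.5% rose and 22.2% fell. At 14 dpa 11 of the 20 rose and 2 fell, against 16.1% and 17.2% of all genes. At 12 dpa 3 rose and 2 fell, against 7.18% and 9.34%. Over both days Ehf (1.28, SE 0.18, adjusted p = 0.000854) and, at 1.73 TPM or less in any library, Elf3 (0.97, SE 0.34, adjusted p = 0.0410) rose. Their relative Elf5 fell (-2.22, SE 0.32, adjusted p = 0.000907), all 3 being Ets factors of epithelia. Foxn1, a factor of hair and nail keratinization, fell (-1.60, SE 0.25, adjusted p = 0.00157). Of 12 mesenchymal transition factors and markers 0 rose and 9 fell over both days, against 21.5% and 22.2% of all tested genes, with a median of -1.23. Among them were the E-box repressors Snai1 (-1.59, SE 0.32, adjusted p = 0.00462) and Zeb2 (-1.41, SE 0.27, adjusted p = 0.00366) and the mesenchymal cadherins Cdh2 (-1.54, SE 0.32, adjusted p = 0.00505) and Cdh11 (-1.32, SE 0.23, adjusted p = 0.00217). Of the same families, Zeb1 fell as well (-1.32, SE 0.23, adjusted p = 0.00212). Snai2 (-0.15, SE 0.15, adjusted p = 0.456) and Snai3 (-0.73, SE 0.61, adjusted p = 0.355) did not pass. Zeb1, Snai2 and Snai3 were named after their values were seen. The genes of this list that fell did so beside the fibroblast markers given above, whose part was not tested.

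**Figure D5:**
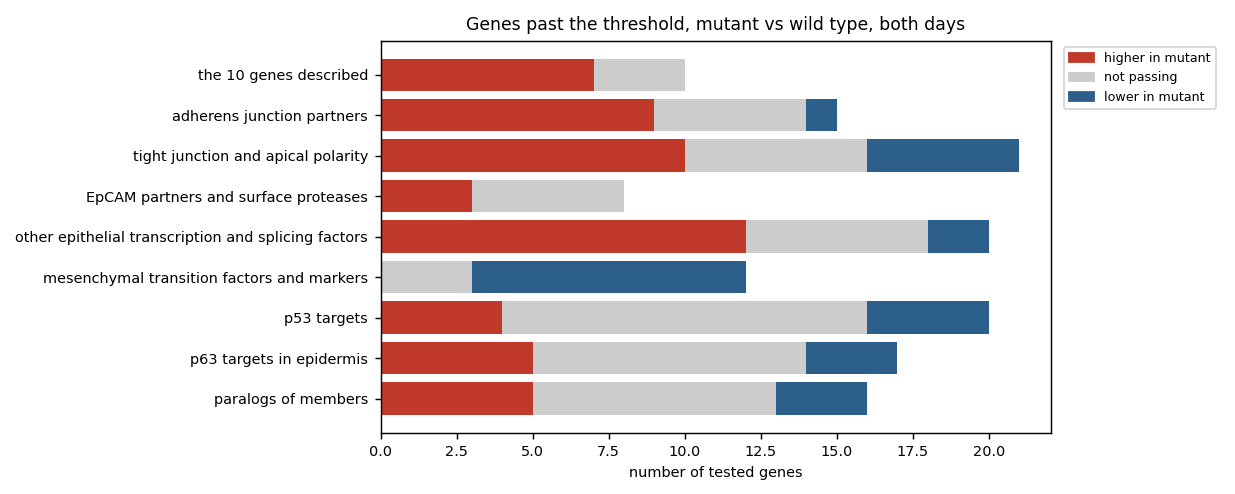
Bars count the tested genes on the x axis that were higher in mutants (red), did not pass (grey) or were lower in mutants (blue) over both days by edgeR at an adjusted p under 0.05, for the 10 genes and each list on the y axis. Of the 10 genes 7 were higher, and of the mesenchymal list 9 of 12 were lower. Among all tested genes 21.5% were higher and 22.2% lower.

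Of 20 p53 targets, 4 rose and 4 fell over both days, a share near that of all tested genes (21.5% and 22.2%), with a median of 0.02, which turned to -0.04 with upper quartile scaling, and on TPM 0 fell. Bbc3 (0.96, SE 0.15, adjusted p = 0.00131) and Btg2 (0.89, SE 0.17, adjusted p = 0.00353) rose, Tnfrsf10b fell (-0.53, SE 0.13, adjusted p = 0.0105) and Zmat3 rose (0.51, SE 0.12, adjusted p = 0.00855). Of 17 p63 targets in epidermis, 5 rose, 3 fell and 9 did not pass, with a median of 0.08. The basal keratins Krt5 (1.32, SE 0.13, adjusted p = 0.000123) and Krt14 (1.05, SE 0.15, adjusted p = 0.000720) rose, and Runx1 (-0.96, SE 0.12, adjusted p = 0.000376) and the nail and hair factor Dlx3 (-0.81, SE 0.14, adjusted p = 0.00196) fell.

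Of 16 tested relatives of the 10 genes, 5 rose over both days, 3 fell and 8 did not pass, against 21.5% of all tested genes that rose and 22.2% that fell. Beside the fall of Cdh2, the cadherin Cdh4 fell (-1.81, SE 0.23, adjusted p = 0.000457), at 1.59 TPM or less in any library. Trp73 rose (0.42, SE 0.11, adjusted p = 0.0137) while Trp53 had -0.04 (adjusted p = 0.816). Of the relatives of Sfn, Ywhaz (0.59), Ywhae (0.24) and Ywhab (0.21) rose, and Ywhag (-0.07), Ywhah (-0.14) and Ywhaq (0.05) did not pass. Klf3 rose (0.48, SE 0.12, adjusted p = 0.00949), Klf2 fell (-0.79, SE 0.18, adjusted p = 0.00752), and Klf5 (0.20), Grhl2 (0.27) and Ovol2 (-0.29) did not pass. With upper quartile scaling 3 relatives rose and 3 fell, and on TPM 9 rose and 2 fell.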

How the data were processed

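Expected counts and TPM per gene were deposited by the authors for each of the 10 libraries, and a joint TPM file covers 21729 protein-coding genes with values equal to those of the single libraries. These expected counts carry no scaling, and 30.9% of those above 0 (13.9% with zeros included) lay more than 0.001 from a whole number. GRCm39, RSEM 1.3.0, STAR 2.7.8a and FastQC appear, without roles, in the submitters' processing notes. Libraries came from a stranded total RNA kit, per the labels' protocols, and whether counting used strand is not given in these sources, so reads of overlapping or antisense genes may be mixed. Groups came from the titles, and titles and descriptions number the wild type 14 dpa pair in opposite order.

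Expected counts were rounded and tested with edgeR 4.0.16 in R 4.3.3 (filterByExpr with minimum count 10 and minimum total 15, leaving 20216 genes, TMM scaling, robust quasi-likelihood fit of 1 mean per group over all 10 libraries). The common dispersion was 0.0767. P-values were adjusted by Benjamini-Hochberg across the 20216 genes at a threshold of 0.05, and an adjusted p with no tool named is edgeR's. CPM use TMM-scaled library sizes. TPM ratios used log2(TPM + 0.1). The alternatives were DESeq2 1.42.0, limma 3.58.1 on log2(TPM + 1) or log2(TPM + 0.1), other scalings, no filter, other model terms and leaving out libraries. The fit was tested on simulated data. Between replicates the chi-square divided by its degrees of freedom was 114 to 223, and none was counted as a duplicate. Sex was read with at least 500 Y-linked counts for a male. Gene names came from the deposited table, which named 21729 identifiers of 55416, and otherwise from GENCODE M21.

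The genes, gene lists and tests were chosen with earlier results of these data known. All 10 genes are named. From each list the named genes are up to 4 with the largest change over both days among those past the threshold, and the relatives, of which 1 is not reported here; the most alike genes are those with the highest Pearson r of log2 CPM (prior count 0.5) to each gene over the 10 libraries.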

Additional observations from a re-analysis of the deposited data

How the results depend on the processing

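Over both days 7 of the 10 genes passed in edgeR, and 5 to 7 did when 1 library was left out. At 12 dpa 3 passed and 1 to 3 did with 1 library left out; at 14 dpa 4 passed and 2 to 5 did. For all genes the counts with 1 library left out were 6769 to 8797 over both days (8843 with all), 769 to 3947 at 12 dpa (3339 with all; 769 without wild type 12 dpa replicate 2, 1509 without replicate 1) and 2548 to 6517 at 14 dpa (6728 with all; 2548 without wild type 14 dpa replicate 1, 2633 without replicate 2). Where an omission leaves 1 wild type library on a day, that library is assumed to vary like the other groups. With mutant 14 dpa replicate 1 placed in wild type by its tag, 0 of the 10 and 0 of all genes passed in each of these comparisons; unadjusted p-values under 0.05 then numbered 1, 2 and 0 of the 10 and 5448, 3957 and 1748 of all genes over both days, at 12 dpa and at 14 dpa. At 12 dpa 5 of the 10 passed in DESeq2 and in limma on log2(TPM + 1) and log2(TPM + 0.1), and 1 with the groups of that day alone, with the replicate block or with sex as a term; at 14 dpa 7 passed in limma with each pseudocount. DESeq2 called 1 of the 10 (Epcam) for the difference between days and for each change between days. Except for the replicate block, the counts of all genes called in these settings are not given here. These counts of the 10 therefore do not show whether they gained or lost calls apart from other genes.

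Replicate numbers are not stated to pair libraries, and same-numbered libraries deviated with r from -0.175 to 0.154 (3 of 13 pairs over 0.1). With the replicate block 7 of the 10 genes passed over both days, and 1927 of all genes, not 3339, passed at 12 dpa. Leaving out mutant and wild type 14 dpa replicates numbered 1 together, chosen after seeing the data because of the tag and the low protein-coding share, left 5 of the 10 over both days, 2 at 14 dpa, and 1520 of all genes at 14 dpa.

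Several values changed sign. Ovol1 at 14 dpa was -0.054 with upper quartile scaling, -0.011 by the tag, from -0.019 (without wild type 14 dpa replicate 1) to 0.11 with 1 library left out, and -0.046 without both replicates numbered 1; Grhl3 at 12 dpa ran from -0.12 (without wild type 12 dpa replicate 2) to 0.61. By the tag the difference between days was -0.27 for Cdh1, -0.022 for Sfn, -0.028 for Perp, -0.22 for Grhl1, -0.030 for Grhl3 and -0.26 for Klf4, and Epcam in wild type had 0.17 for 14 over 12 dpa. With all libraries as titled, the values of Klf4, Grhl1 and Epcam were 0.71, 0.44 and -0.88, not near 0. Without both replicates numbered 1 the difference between days was -0.040 for Cdh1. With 1 library left out it ran from -0.40 to 0.26 for Cdh3 and from -0.14 to 0.60 for Grhl3. The log2 ratio of Cdh3 to Cdh1 ran from -0.089 to 0.079 and that of Grhl3 to Grhl1 from -0.31 to 0.10 with 1 library left out, and by the tag they were 0.0038 and 0.030. Klf4 to Ovol1 ran from 1.02 to 1.47 with 1 library left out, and by the tag it was 0.91 (adjusted p = 0.27). The cause of these changes was not tested.

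The share of calls that were higher in mutants, over all genes and both days, was 49.2% in edgeR, 71.8% and 71.9% in limma on TPM and 41.9% with upper quartile scaling. The median of all genes was then 0.14 and 0.26 on TPM, and it was -0.11 at 14 dpa with upper quartile scaling. On TPM 9 of the 10 genes passed over both days, all but Ovol1, and the share of all genes called on TPM is not given here. With 2 wild type libraries a day, moderate differences on 1 day may go undetected at this number of libraries.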
